A study of Betula luminifera with 4 samples.

Results

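Of the 215 distinct sequences in the miRNA table of Betula luminifera, a birch tree, 8 carry a miRNA name whose letters resemble part of a transfer RNA. They belong to 5 of the 56 named families, miR894, miR5072, miR6300, miR6478 and miR8175, and were picked by family number alone, each sequence once. The list of families was drawn up with the table's values known, so the levels and ratios below describe the members and carry no test. Each of the 4 groups is 1 small RNA library from plants of clone G49#: root LP and shoot LP came from plants watered with a modified MS medium with 0 mM KH2PO4 (phosphate deficiency), and root CK and shoot CK from plants given 1.25 mM KH2PO4. All plants were raised in tissue culture, moved to sand and kept on deionized water before the treatments began, and K2SO4 made up the potassium in LP. The shoot libraries hold RNA of stems and leaves in equal amounts, and the labels do not say how many of the 54 plants stand behind each library. With 1 library per group there is no replicate check and no p-value. The tissue labels were not checked against markers, since the table lists mature small RNAs only, and in whole tissue fewer cells of a type and less RNA per cell cannot be told apart.

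Transfer RNAs carry amino acids to the ribosome. Their folded form has an acceptor stem, in which the 5' end pairs with letters near the 3' end, a D arm, an anticodon arm and a T arm, and an enzyme adds the letters CCA to the 3' end after transcription. Cleavage of mature tRNAs gives fragments from either end, which sequencing of small RNAs picks up beside true miRNAs, and in Arabidopsis such fragments have been described in roots starved of phosphate. A plant miRNA, in contrast, is cut from the stem of its own hairpin precursor, is mostly 21 nt long and often begins with U. The 3' ends of tRNAs also prime the copying of LTR retrotransposons, whose RNA carries the complementary letters.

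The 8 sequences are given 5' to 3' as the authors' table has them, with T for U and the seed, bases 2 to 8, in capitals, because their letters are what sets them apart from the other names.
miR6300: gTCGTTGTagtatagtggtaagtatt
miR6478: cCGACCTTagctcagttggta
miR894: tTCACGTCgggttcacca
miR5072: tCCCCAGTggagtcgcca
miR8175a: cGATCCCCggcaacggcgcca
miR8175b: gATCCCCGgcaacggcgcca
miR8175c: tCCCCGGCaacggcacca
miR8175d: tTCCCCGGcaacggcgcca

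The members fell into 2 kinds by their letters, pieces of a tRNA's 5' end and pieces of a tRNA's 3' end. From background knowledge, and with no tRNA sequence compared here, miR6300 reads as the 5' end of the plant tRNA for aspartate and miR6478 as the 5' end of that for tyrosine. The other 6 end in CCA, as a mature tRNA does, against 7 of the other 207 sequences (3.38%). The families were listed for their likeness to tRNAs, so these comparisons of letters describe the members and cannot test that likeness. Of the 6, the 4 miR8175 sequences are overlapping variants with the same end. The CCA-ended members are miR894, miR5072 and the 4 sequences of miR8175, and the tRNAs behind miR894 and miR5072 are not named here. The letters AGTGG or AGTTGG, as in the D arm of many tRNAs, were searched on the given strand and found in miR6300, miR6478 and miR5072 and in 2 of the other 207 sequences (0.966%), miR477-3p and miR482b-5p. In miR5072 they lie in a CCA-ended sequence, so these letters do not mark a D arm by themselves. The letters GTTC, searched because the T arm of many tRNAs holds them, were present in miR894 and in 13 of the other 207 sequences (6.28%). In miR894 they lie directly before the closing ACCA, where a tRNA has its acceptor stem, so they do not mark a T arm there.

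miR6300 and miR8175 can be read as the opposite ends of the same tRNA. The first 7 bases of miR6300, GTCGTTG, can pair with the 7 bases that precede the last 4 of each miR8175 sequence, CAACGGC, through 6 Watson-Crick pairs and 1 G-U pair, as in an acceptor stem. None of the other 200 sequences without a CCA end could pair at all 7 positions there, and miR6478 paired at 1. Unrelated sequences rarely pair at 7 set positions, so this count could hardly have come out otherwise and carries little weight. The 4 miR8175 sequences share these 7 bases, so they are not separate checks. With the tail of miR5072, miR6300 paired at 5 positions, and with that of miR894 at 4. The Arabidopsis precursor that the table lists for miR8175, ath-MIR8175, is 189 nt long and holds the whole of miR8175b. It also holds 16 bases of miR6300, tatagtggtaagtatt, on the same strand, and 13 bases of it on the opposite strand. In the poplar precursor of miR6478, ptc-MIR6478, stand the first 20 bases of the birch sequence and the reverse complement of its first 8.

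Compared with the miRBase entries that gave them their names, the members were shifted or extended copies with at most 1 substitution each. Substitutions are written as the entry's base, its position counted from 1 at the entry's 5' end, and the birch base. miR6300 began at the first base of the soybean entry gma-miR6300 and ran 8 bases past its end, into letters that the soybean precursor also has. At 26 nt it was the longest sequence of the table. miR6478 differed from poplar ptc-miR6478 by G21A, its last base. miR894 began 3 bases inside the moss entry ppt-miR894, ran 1 base past its end, which completes the CCA, and had no substitution. miR5072 began 4 bases inside the rice entry osa-miR5072, shared its end and differed by C12T. miR8175b was identical to the Arabidopsis entry ath-miR8175, miR8175a had 1 more base in front, miR8175c differed by G17A and began 2 bases inside, and miR8175d differed by A2T and began 1 base inside. All 4 miR8175 sequences end at the same base and share runs of at least 12 bases, and miR8175b lies whole within miR8175a, so their reads can overlap and the family sum is firmer than its parts. No member shared 12 bases in a row with any of the other 207 sequences, on either strand.

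In length and base composition the members compared with the rest of the table as follows. They measured 18 to 26 nt with a median of 19.5 nt, and 2 of 8 were 21 nt long, against 105 of 207 other sequences (50.7%). Their median GC content was 69.4%, against 47.6% in the other sequences, with miR6300 lowest at 34.6% and miR8175a highest at 76.2%. The overlapping miR8175 sequences gave the 4 highest values, from 72.2% up, so this median leans on that family. Of the remaining members, miR6478 had 52.4%, miR894 55.6% and miR5072 66.7%. In their first base the 8 members did not stand apart: a 5' T, the DNA letter for U, opened 4 of the 8 (miR894, miR5072, miR8175c and miR8175d), against 106 of the 207 others (51.2%). The 8 had 8 different seeds, because the miR8175 sequences begin at different bases.

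A precursor on a birch transcript of the authors' assembly was listed for the 4 miR8175 sequences and for none of the other 4 members, against 132 of the 207 other sequences (63.8%) and 73 of the 148 others with a known name (49.3%). No genome build applies to these positions, and the files give no gene at them. For miR8175a the table gives TRINITY_DN23331_c0_g5, positions 201 to 221, and for miR8175c TRINITY_DN23872_c1_g1, positions 572 to 590, both on the minus strand. These stretches of 21 and 19 nt hold little beyond the mature sequence, and their 10-nt hairpins were the shortest of the 136 distinct sequences with a birch precursor. miR8175b was placed on TRINITY_DN23331_c0_g8, positions 57 to 211, and miR8175d on TRINITY_DN25658_c1_g2, positions 391 to 567, again on the minus strand, with hairpins of 149 and 174 nt. The folding energy index, a score that tends to be higher for true miRNA precursors, was 0.4 to 0.6 for the 4, against a median of 0.95 over the other sequences with a birch precursor and 0.7 over those of them with a known name. Written as the transcript's base, its position in the mature sequence and the mature base, miR8175a differed from its transcript by A2G and miR8175b by A1G, while miR8175c and miR8175d matched theirs.

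The families held a larger share of the reads in roots than in shoots, and miR6300 supplied most of that share in 3 of the 4 libraries. A share here is of the raw reads of all distinct sequences, which summed to 101816 in root LP, 308667 in root CK, 723599 in shoot LP and 1015833 in shoot CK. Sequences outside the table are not in these sums. Of them, the 5 families held 6.45% in root LP (exact binomial 95% interval 6.30% to 6.60%), 4.95% in root CK (4.88% to 5.03%), 1.62% in shoot LP (1.59% to 1.65%) and 1.09% in shoot CK (1.07% to 1.11%). All intervals given here cover counting error only, since each group has 1 library. Reads copied by PCR are not independent molecules, so the intervals can be too narrow even for that. Within the reads of the 5 families, miR6300 made up 70.1% in root LP, 74.4% in root CK, 69.0% in shoot LP and 38.4% in shoot CK, where miR6478 held 42.5%. Of the reads that begin with a base other than T, the members held 43.6% in root LP, 31.0% in root CK, 43.2% in shoot LP and 21.4% in shoot CK. Of the reads of the 10 sequences of 18 nt, miR894, miR5072 and miR8175c together held 96.7%, 98.2%, 100% and 99.5% in the same libraries.

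**Figure D1:**
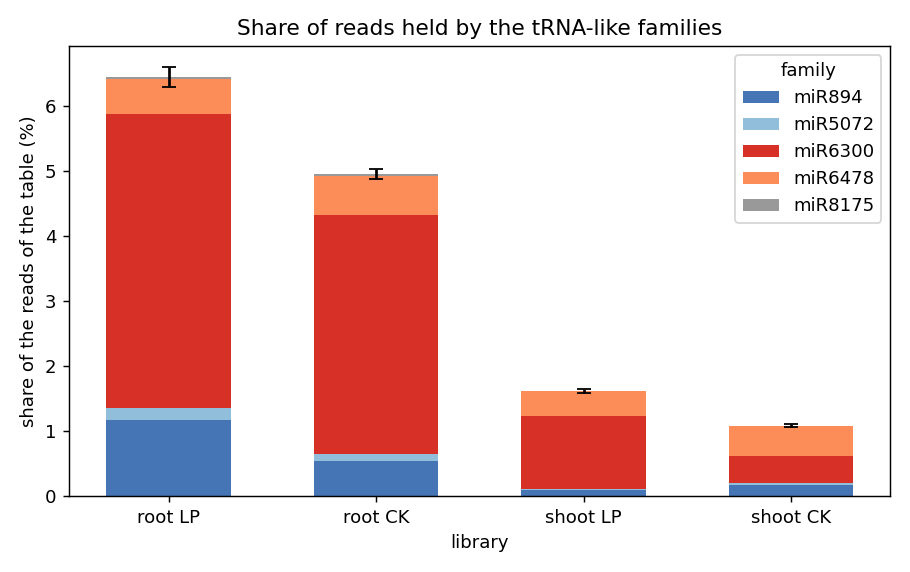
Share of the reads of the table, in percent, held by each tRNA-like family in the root LP, root CK, shoot LP and shoot CK libraries (1 library each), stacked, with exact binomial 95% intervals of the sum as bars. The red block, miR6300, is the largest in every library except shoot CK, and both root columns (6.45% and 4.95%) stand above both shoot columns (1.62% and 1.09%).

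Levels are the authors' normalized values, which are the raw reads times 1 constant per library, and folds are plain ratios of them with an exact conditional 95% counting interval in parentheses. Log2 ratios were taken after adding 1, which understates the change of low values. A call, higher or lower, needed a 2-fold difference and a normalized value that reached 10 in either library. Between roots and shoots the choice of constant matters: scaling to the table total instead raised log2 ratios of root over shoot, before 1 is added to the values, by 1.02 under LP and by 0.73 under CK. Between LP and CK within a tissue the shift was 0.18 in roots and -0.11 in shoots, and with TMM, a trimmed mean of ratios, -0.05 and 0.39. After adding 1, values near 0 shift by less.

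**Figure D2:**
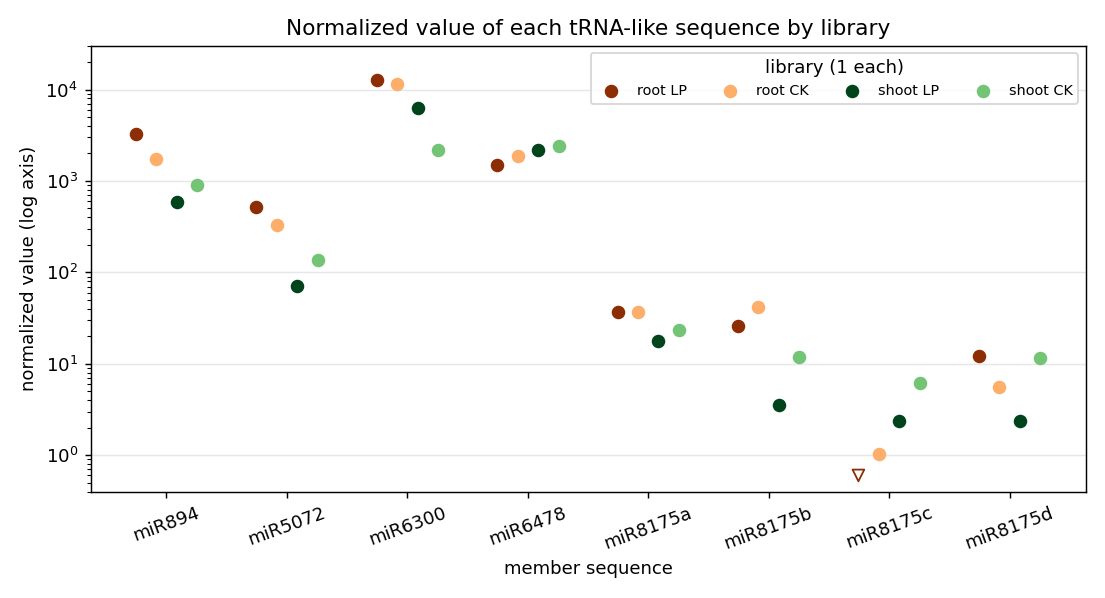
Normalized value (log axis) of each of the 8 sequences in the root LP, root CK, shoot LP and shoot CK libraries, 1 point per library, with an open triangle at the foot for a value of 0. miR894, miR5072, miR6300, miR8175a and miR8175b are higher in both root libraries than in both shoot libraries, whereas miR6478 and miR8175c are lowest in root LP.

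Among the 5' end pieces, miR6300 was higher in LP than in CK in shoots and nearly level in roots. It stood at 12569.9 in root LP, 11617 in root CK, 6299.8 in shoot LP and 2190.7 in shoot CK, from 4605, 11369, 8075 and 4240 raw reads. Shoot CK was the low library and the root libraries were the high ones. The shoot LP value was 2.88-fold (2.77 to 2.99) that of shoot CK, while root LP was 1.08-fold (1.05 to 1.12) root CK. Root CK was 5.30-fold (5.12 to 5.49) shoot CK, and root LP 1.995-fold (1.92 to 2.07) shoot LP, at the line for a call, with 4.05-fold after scaling to the table total and 1.59-fold under TMM. By level it ranked 6 of 215 sequences in both root libraries, 10 in shoot LP and 22 in shoot CK.

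miR6478 had the narrowest range of the 4 members with values above 100, its highest library being shoot CK. It stood at 1490.4 in root LP, 1863 in root CK, 2155 in shoot LP and 2429 in shoot CK. None of its ratios reached 2-fold: root LP was 1.25-fold (1.14 to 1.38) lower than root CK, and shoot LP 1.13-fold (1.08 to 1.18) lower than shoot CK. The shoot ratio turned to 1.17-fold higher under TMM scaling. Root LP was 1.45-fold (1.32 to 1.59) lower than shoot LP and root CK 1.30-fold (1.24 to 1.38) lower than shoot CK, and scaling to the table total turned both directions, to 1.40-fold and 1.28-fold higher in roots.

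The 3' end pieces miR894 and miR5072 were higher under LP in roots and lower under LP in shoots. miR894 stood at 3265 in root LP, 1728 in root CK, 584 in shoot LP and 901 in shoot CK, so root LP was highest and shoot LP lowest. Root LP was 1.89-fold (1.75 to 2.04) root CK, and shoot LP was 1.54-fold (1.42 to 1.68) lower than shoot CK, both short of 2-fold. Scaling to the table total took the root ratio past 2-fold, to a log2 ratio of 1.10 in place of 0.92. Between tissues, root LP was 5.59-fold (5.10 to 6.14) shoot LP, and root CK 1.92-fold (1.79 to 2.05) shoot CK, which passed 2-fold under all 4 other scalings (log2 ratios of 1.05 to 1.73). Its rank among all sequences was 11 in root LP, 21 in root CK and 34 in both shoot libraries.

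miR5072 followed the same order of libraries at a lower level, with 521 in root LP, 330.0 in root CK, 71.0 in shoot LP and 136 in shoot CK. Its raw reads numbered 191, 323, 91 and 264. Root LP was 1.58-fold (1.31 to 1.90) root CK, and shoot LP 1.92-fold (1.51 to 2.47) lower than shoot CK, past 2-fold with scaling to the table total (a log2 ratio of -1.04 in place of -0.93). Root LP was 7.34-fold (5.69 to 9.53) shoot LP, and root CK 2.42-fold (2.05 to 2.86) shoot CK. The ratio of miR894 to miR5072 reads within a library needs no scaling, and was 6.26 (5.37 to 7.33) in root LP, 5.24 (4.65 to 5.92) in root CK, 8.22 (6.61 to 10.3) in shoot LP and 6.61 (5.80 to 7.55) in shoot CK. These intervals overlap between root LP and root CK, and between shoot LP and shoot CK.

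miR8175, the other CCA-ended family, was rare. Its 4 sequences summed to 75.1 in root LP, 85.3 in root CK, 26.1 in shoot LP and 53.2 in shoot CK, from 27.5, 83.5, 33.5 and 103 raw reads. Shoot LP was 2.04-fold (1.35 to 3.05) lower than shoot CK, with a log2 ratio of -0.999 that TMM scaling brought to -0.62. In roots LP over CK was 0.880 (0.559 to 1.38), an interval that reaches from lower to higher, so these reads could not show a difference. Root LP was 2.87-fold (1.68 to 4.90) shoot LP, and root CK 1.60-fold (1.19 to 2.17) shoot CK, which came to 2.64-fold with scaling to the table total.

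Within the family the ratios of single sequences rest on few reads. The LP over CK intervals of miR8175a, miR8175b and miR8175d overlapped in each tissue, so these reads could not show that the sequences moved differently. miR8175a held 36.8 in root LP, 37.3 in root CK, 17.9 in shoot LP and 23.5 in shoot CK, and its LP ratios had intervals that include equality in both tissues. miR8175b held 25.9, 41.4, 3.51 and 11.9 in the same libraries and was 3.38-fold (1.30 to 15.1) lower in shoot LP than in shoot CK. miR8175d held 12.3, 5.62, 2.34 and 11.6, with 4.5 reads in root LP, 5.5 in root CK, 3 in shoot LP and 22.5 in shoot CK. It was 4.97-fold (1.46 to 25.3) lower in shoot LP than in shoot CK, and its root ratio of 2.19-fold (0.370 to 7.51) includes equality. miR8175c had 0 reads in root LP, 1 in root CK, 3 in shoot LP and 12 in shoot CK, never reached a value of 10 and was not compared.

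**Figure D3:**
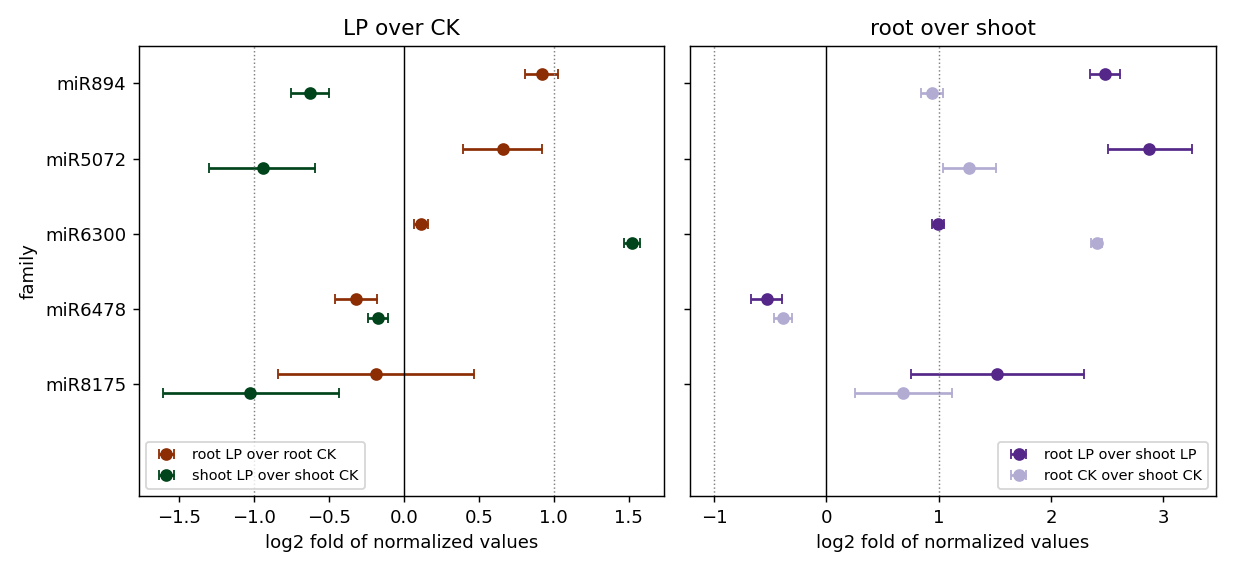
Log2 fold of the normalized values of each family, LP over CK on the left (roots in brown, shoots in green) and root over shoot on the right (LP dark, CK light), with exact 95% counting intervals as bars and dotted lines at 2-fold. miR894 and miR5072 lie right of 0 in roots and left of 0 in shoots for LP over CK, while miR6300 lies at 2.88-fold in shoots.

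The sum of the 5 families was 17921 in root LP, 15622 in root CK, 9135 in shoot LP and 5711 in shoot CK. LP over CK was 1.15-fold (1.11 to 1.18) in roots and 1.60-fold (1.56 to 1.64) in shoots. The shoot value rests on miR6300: without it the sum was lower in LP than in CK, at a log2 ratio of -0.31 in place of 0.68. Root over shoot was 1.96-fold (1.90 to 2.02) under LP and 2.74-fold (2.67 to 2.80) under CK, and without miR6300 the CK value came to 1.14-fold.

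Of the 8 sequences, 7 passed the minimum value in each comparison. In roots, 1 of the 7 was called under LP (higher, miR8175d), where 24.5% of all 143 sequences were called higher and 18.2% lower, and the members' median log2 ratio was 0.11 against 0.07 over all. In shoots, 1 was called higher under LP (miR6300) and 2 lower (miR8175b and miR8175d), where 17.9% of all 140 sequences were called higher and 27.9% lower, with medians of -0.63 and -0.23. The LP calls of miR8175b and miR8175d come from sequences that reached the minimum only in the library where they were higher, so they carry little weight. miR8175d had 12.3 in root LP against 5.62 in root CK, and 2.34 in shoot LP against 11.6 in shoot CK. miR8175b had 3.51 in shoot LP against 11.9 in shoot CK. Over all 140 sequences, 25 were higher and 39 lower, a split that TMM turned to 48 and 23 and the median of ratios to 37 and 33. Between root LP and shoot LP, 5 of the 7 were called higher in roots and none lower, where 34.8% of all 158 sequences were called higher in roots and 38% lower, with medians of 1.99 and -0.22. These 5 include the overlapping miR8175a, miR8175b and miR8175d, with 13.5, 9.5 and 4.5 reads in root LP. Of these, miR8175b and miR8175d reached the minimum in root LP only. The interval of miR8175d (0.789 to 31.8) includes equality, and its log2 ratio is the members' median of 1.99. Taken by family, the median was 1.49 over the 5 families against -0.10 over all 48 families past the minimum. Between root CK and shoot CK, 3 were called higher in roots and 1 lower (miR8175d), where 26.1% of all 142 sequences were higher and 38% lower, with medians of 0.94 and -0.44. The root over shoot interval of miR8175d under CK (0.179 to 1.37) includes equality too, and of these libraries it reached the minimum in shoot CK only. Over all sequences, scaling to the table total turned the splits of root against shoot, 55 higher and 60 lower under LP and 37 and 54 under CK, to 84 and 37 and to 56 and 37. Since the list was drawn up with these values known, no result about the families is read from the counts.

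Within a library, the reads of the CCA-ended members relative to those of miR6300 and miR6478 shifted in opposite directions with LP in the 2 tissues. Most CCA-ended reads were those of miR894: 1196 of 1414.5 in root LP, 1691 of 2097.5 in root CK, 748 of 872.5 in shoot LP and 1744.5 of 2111.5 in shoot CK. The grouping by CCA end was chosen after the values were seen. The CCA-ended members had 0.275 reads (0.259 to 0.291) for each read of miR6300 and miR6478 in root LP and 0.159 (0.152 to 0.167) in root CK. In shoots the ratio was 0.0805 (0.0750 to 0.0862) in LP and 0.236 (0.225 to 0.248) in CK. For the pair that can be read as ends of the same tRNA, miR6300 had 167 reads (114 to 248) for each read of miR8175 in root LP, 136 (109 to 170) in root CK, 241 (170 to 343) in shoot LP and 41.2 (33.9 to 50.6) in shoot CK. Shoot CK stood apart. The intervals of root LP and root CK overlapped, so in roots this pair did not show the shift of the CCA-ended members. miR6300 had 8.43 reads (7.72 to 9.23) for each read of miR6478 in root LP, 6.24 (5.93 to 6.56) in root CK, 2.92 (2.80 to 3.05) in shoot LP and 0.902 (0.865 to 0.940) in shoot CK.

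The direction of the LP ratios of miR894 and miR5072 was also that of most other short sequences that passed the minimum value. In roots, all 4 other 18-nt sequences and all 5 other 19-nt sequences past the minimum value had log2 ratios above 0, with medians of 2.45 and 2.16, as did 13 of 17 other 20-nt sequences. miR894 and miR5072, both 18 nt, had 0.92 and 0.66. In shoots, no other 18-nt sequence passed the minimum, 0 of 3 other 19-nt and 1 of 13 other 20-nt sequences lay above 0, and miR894 and miR5072 had -0.63 and -0.93. Of the 15 other sequences of 18 to 20 nt past the minimum in both tissues, 11 were above 0 in roots and below 0 in shoots, against 17 of 69 of 21 nt and 1 of 26 of 22 nt or more. For the longer sequences the reverse was common, 15 of those 26 being below 0 in roots and above 0 in shoots, and miR6300, at 26 nt, had 0.11 and 1.52. The part that the length of the RNA in each library had in the members' ratios was not tested.

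**Figure D4:**
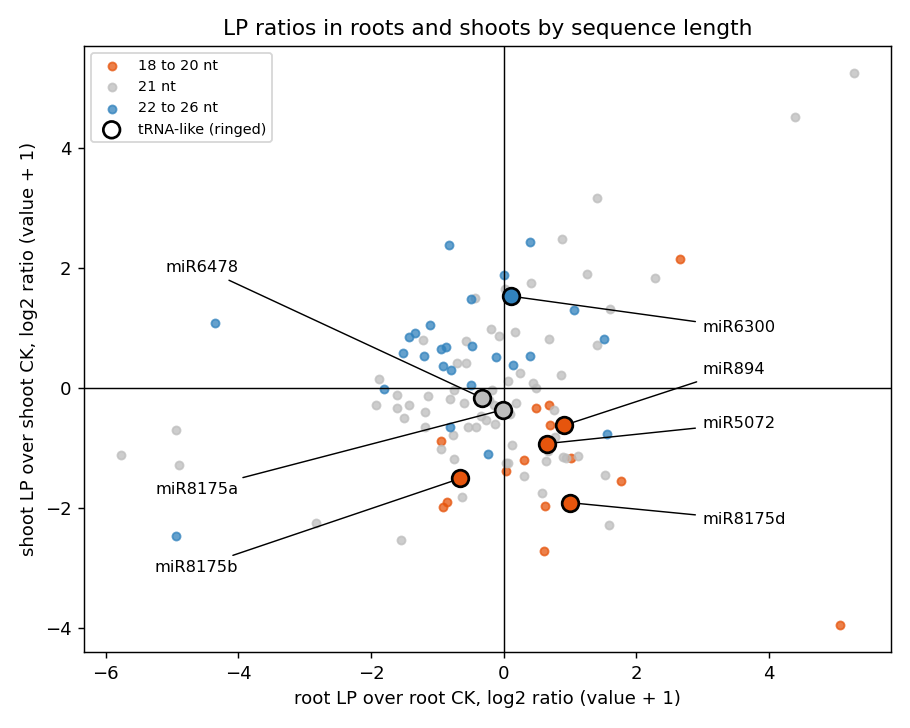
Log2 ratio (value + 1) of LP over CK in roots (x axis) and in shoots (y axis) for the 117 sequences past the minimum value in both tissues, 1 point per sequence, coloured by length, with the 7 tRNA-like members ringed and named. miR894, miR5072 and miR8175d lie to the lower right among other sequences of 18 to 20 nt, and miR6300 lies above 0 in shoots.

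The sequences whose pattern over the 4 libraries was most like that of miR6300 were sought among the 67 others with a mean value of at least 100. Likeness was the Euclidean distance between log2(value + 1) profiles, each centred on its own mean, over 4 libraries. The nearest were miR160a-3p at 1.04, miR167a-3p at 1.14, miR166d at 1.32, miR162a at 1.42 and blu-miR7-5p, a predicted birch miRNA, at 1.47. miR160a-3p stood at 595 in root LP, 881 in root CK, 357 in shoot LP and 269 in shoot CK, so its profile resembled that of miR6300 in a high root pair and a low shoot CK. For the sum of the 5 families the nearest were miR167a-3p at 0.417, miR160a-3p at 0.573, blu-miR14-3p at 0.709, miR166d at 0.757 and miR156a/b/c at 0.796. With 4 libraries such a resemblance describes these libraries only.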

How the data were processed

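Small RNA was sequenced as 36-nt single reads from about 1 µg of total RNA per library, per the labels' protocols, in 4 libraries, 1 per group. The raw columns hold estimated counts per mature sequence as deposited by the authors. The normalized columns, named so per the file headers, hold a signal equal to the deposited raw column times a constant of its library, as the values show. The table's GC percent and folding score of each precursor were used as deposited. The aligner, the counter, the filters and the release of miRBase are not stated in the labels or the header. Every column of values belongs to a sample.

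Of 221 table lines, 215 distinct sequences were kept, and the 8 members stand on 1 line each. Members, lists and the naming rule (every member, and the 5 most alike sequences) were chosen with earlier results of these data known. Shares have exact binomial and folds exact conditional intervals (95%, Clopper-Pearson, scipy 1.17.1) from reads rounded to whole numbers. The fold intervals and the calls, but not the share intervals, were tried on simulated counts. These counts held counting error only, as the intervals assume, so the trial does not show how the intervals do on real libraries. Added were table-total, TMM (edgeR 4.0.16) and median-of-ratios scaling, pseudocounts of 0.5 and 10 in place of 1, other filters and all rows as deposited. As 1 library stands for each group, p-values were not computed.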

Additional observations from a re-analysis of the deposited data

Results flagged for a closer look

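miR894 differed in the direction of its LP ratio between the tissues, with LP over CK at 1.89 in roots and 0.647 in shoots and both counting intervals away from equality. miR5072 did likewise, at 1.58 in roots and 0.520 in shoots. The CCA-ended members together, a class chosen after the values were seen, stood at 1.80 in roots and 0.624 in shoots. Most reads of that class were those of miR894, so it is no separate result. The miR8175 family, also in the class, stood at 0.880 in roots, with an interval that includes equality, and at 0.491 in shoots. The difference between the tissues was not tested, since each ratio rests on 1 library per treatment.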

How the results depend on the processing

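No paired analysis was possible because each group has 1 library. For the sum of the 5 families, the log2 ratio of LP over CK in roots (0.20) came to 0.38 with scaling to the table total, 0.40 to that total without the families, 0.15 under TMM and 0.42 without miR6300. In shoots (0.68) the same settings gave 0.57, 0.58, 1.07 and -0.31, and the median of ratios 0.84. Root over shoot under LP (0.97) came to 1.99, 2.07, 0.64 and 0.92, and to 1.02 with the median of ratios. Root over shoot under CK (1.45) came to 2.19, 2.24, 1.57 and 0.19, and to 1.70. Why the scalings differ was not tested. Among known names only, the families held 7.92% of reads in root LP, 5.80% in root CK, 1.97% in shoot LP and 1.30% in shoot CK. The count of called sequences under LP was 61 in roots and 64 in shoots; without a minimum value it was 102 and 104, with a minimum of 100 it was 18 and 28, and at 1.5-fold 98 in each. Between tissues a minimum of 100 gave 55 under LP and 54 under CK, in place of 115 and 91. miR894, miR5072, miR6300 and the CCA-ended members kept the direction of all 4 ratios under the 4 other scalings, of which the 2 total scalings are nearly alike. Other pseudocounts and all rows as deposited could not turn a direction of a member, so they are no check of it. miR8175a turned in roots to 0.16 and 0.18 under the 2 total scalings and in shoots to 0.0037 under TMM, and the miR8175 sum turned in roots to 0.020 without the families in the total. Ratios of miR8175 rest on 27.5 to 103 reads.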

Other observations

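The seed of miR6300, TCGTTGT, was also the seed of miR858, a 21-nt miRNA that targets MYB genes, and of no other of the 207 sequences. Their levels ran opposite across shoots: miR858 stood at 361 in shoot LP and 1777 in shoot CK, whereas miR6300 stood at 6299.8 and 2190.7. In roots miR858 stood at 221 in LP and 72.5 in CK. Its sequence, shown with the shared seed in capitals, differs from miR6300 outside that stretch.
miR858: tTCGTTGTctgttcgaccttg

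miR5139, looked for by name as another possible fragment of a structural RNA, had 1 sequence in the table, with 4 reads in root LP, 6 in root CK, 0 in shoot LP and 7 in shoot CK.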
